A study of Homo sapiens with 7 samples.

Results

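Angiogenic growth factors, neuropilin co-receptors and the angiogenesis inhibitor THBS1 were followed in SUM159 cells after knockdown of SHP2, the phosphatase encoded by PTPN11. They are VEGFA, VEGFB, VEGFC, PGF, FGF2, ANGPT1, ANGPT2, NRP1, NRP2 and THBS1, chosen by name, and they are 10 of 18417 genes with a probe annotated to that gene alone. A gene with several such probes was read by the probe of widest interquartile range. All 10 were measured on every array, and no gene was removed for low signal. SUM159 is a human triple-negative breast cancer cell line of mesenchymal character. The cells carried a doxycycline-inducible hairpin, labelled Ctrl shRNA (CTRL miR, 2 arrays), SHP2 sh1 (SHP2 miR1, 2 arrays) or SHP2 sh2 (SHP2 miR2, 3 arrays). Doxycycline, insulin and hydrocortisone were given to all 3 groups, and RNA was taken after 15 days of culture. The labels give neither the clonality of each hairpin line nor the number of cultures behind the arrays of a group. The p-values below thus measure only how far arrays differ, and that spread may be technical.

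VEGFA, VEGFB, VEGFC and PGF are secreted ligands of the vascular endothelial growth factor family, which act through tyrosine kinase receptors on blood and lymphatic endothelial cells. NRP1 and NRP2 are co-receptors that bind these ligands and also class 3 semaphorins. FGF2 signals through the fibroblast growth factor receptors, ANGPT1 and ANGPT2 are ligands of the endothelial receptor TEK, and THBS1, a matrix glycoprotein, restrains vessel growth. Tumour cells commonly secrete several of these factors, and VEGFA is a classical target of the oxygen-sensing pathway.

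The targeted gene was read before the members. PTPN11 had log2 values of 9.53 and 9.18 with Ctrl shRNA, 7.90 and 6.93 with SHP2 sh1, and 7.96, 7.20 and 7.89 with SHP2 sh2. All 5 SHP2 arrays lay below both controls, by 1.94 ± 0.41 (SE) on the log2 scale for SHP2 sh1 and by 1.67 ± 0.37 for SHP2 sh2. Across all genes limma called none in either hairpin, PTPN11 included, with adjusted p = 0.995 for SHP2 sh1 and 0.667 for SHP2 sh2. Before adjustment, p was 0.00243 for SHP2 sh1 and 0.00329 for SHP2 sh2. The arrays numbered 2 of SHP2 sh1 and of SHP2 sh2, which held the lowest PTPN11 value of each hairpin, stood apart. Their correlation over all probes with the other 5 arrays was 0.930 to 0.965 and 0.886 to 0.936, against 0.982 to 0.992 among those 5. On both, bright genes read lower and dim genes higher than in the controls. Without these arrays PTPN11 differed by -1.44 for the mean of both hairpins, against -1.80 with all arrays. Of 6 mesenchymal markers, all lay above the median level of genes in the controls, and of 6 expected to be absent or low, ERBB2 and KRT18 did. Endothelial markers bear on this group of genes, since endothelial cells express several of the receptors. Of 10 such markers, CLDN5 and EGFL7 lay above that median, PECAM1, CDH5 and VWF below it. Their summed linear level was 750 to 856 with Ctrl shRNA, 859 to 1002 with SHP2 sh1 and 914 to 1247 with SHP2 sh2, highest on the SHP2 sh2 array 2. None of 5 blood cell markers lay above the median, and their summed level was 196 to 318. The part of these markers in the results below was not tested.

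No member passed the test in any comparison. In SHP2 sh1 and in SHP2 sh2 against Ctrl shRNA, in the average of both hairpins against the control, and in SHP2 sh2 against SHP2 sh1, limma called 0 of 10 members at an adjusted p of 0.05, where it called 0% of all genes. Without adjustment 0 of 10 members were under 0.05 in each, where the shares of all genes were 1.09% for SHP2 sh1, 2.35% for SHP2 sh2, 1.94% for the mean of both and 0.63% between the hairpins. Against the control, the smallest unadjusted p among the members were those of the ligands PGF and VEGFA in SHP2 sh2, whose 3 arrays all lay below both controls. The 2 SHP2 sh1 arrays disagreed for most members, and 6 members read lower on both arrays numbered 2 than on the other 3 SHP2 arrays.

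Proximal promoters were compared for 6 of the 10 genes, using the 250 bases before the start in RefSeq (GRCh38.p14). Where a gene had several windows, that starting furthest upstream was taken. VEGFA and NRP1 had no window. The search left out the chromosome that carries ANGPT1 and ANGPT2, so whether RefSeq gives them a window was not determined here. Those of 4 genes are printed 5′ to 3′ on the gene's strand, because PGF read low in every SHP2 sh2 array, VEGFB read the opposite way, and VEGFC and THBS1 read low on the arrays numbered 2. Capitals mark matches on either strand to GGAAG (the core of ETS factor sites, read CTTCC on the opposite strand), ACGTG (the core of hypoxia response elements) or TGANTCA (the AP-1 site). The windows are VEGFB chr11:64234334-64234583 on the plus strand, VEGFC chr4:176792923-176793172 on the minus strand, PGF chr14:74955765-74956014 on the minus strand and THBS1 chr15:39580829-39581078 on the plus strand.
VEGFB: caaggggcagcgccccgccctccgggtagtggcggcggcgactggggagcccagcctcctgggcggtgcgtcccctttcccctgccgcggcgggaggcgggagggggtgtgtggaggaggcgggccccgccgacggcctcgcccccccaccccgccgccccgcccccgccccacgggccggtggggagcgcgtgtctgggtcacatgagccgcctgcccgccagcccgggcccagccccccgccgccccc
VEGFC: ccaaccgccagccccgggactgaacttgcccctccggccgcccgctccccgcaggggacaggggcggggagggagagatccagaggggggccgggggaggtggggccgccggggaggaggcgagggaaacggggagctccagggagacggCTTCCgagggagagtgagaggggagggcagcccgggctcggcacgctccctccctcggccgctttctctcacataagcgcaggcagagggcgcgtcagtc
PGF: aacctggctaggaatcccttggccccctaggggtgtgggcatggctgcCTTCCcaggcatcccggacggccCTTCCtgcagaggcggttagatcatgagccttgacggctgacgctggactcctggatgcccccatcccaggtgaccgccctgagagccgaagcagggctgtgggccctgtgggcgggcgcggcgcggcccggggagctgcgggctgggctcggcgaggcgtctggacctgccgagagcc
THBS1: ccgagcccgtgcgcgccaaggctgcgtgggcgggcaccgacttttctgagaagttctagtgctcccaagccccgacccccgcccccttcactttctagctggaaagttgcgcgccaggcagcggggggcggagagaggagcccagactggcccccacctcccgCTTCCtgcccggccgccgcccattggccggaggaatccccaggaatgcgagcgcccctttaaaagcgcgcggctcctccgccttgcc
The window of PGF held the ETS core letters at 2 places, those of VEGFC and THBS1 at 1 place each, and those of VEGFB, FGF2 and NRP2 at 0. Of all 35116 RefSeq promoter windows of this length, 65.1% held GGAAG on either strand. Neither ACGTG nor TGANTCA, held by 18.5% and 6.6% of all windows, was found in any of the 6. The Sp1 box GGGCGG, held by 42.6% of all windows and left in lower case, occurred 6 times in VEGFB, 4 in THBS1, 3 in FGF2 and in NRP2, and 2 in VEGFC and in PGF. These matches describe the letters of the windows only. FGF2 and NRP2, whose windows are not printed, also read low on the arrays numbered 2.

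Among the VEGF family ligands, VEGFA, the principal growth factor for blood vessels, had log2 values of 10.22 and 10.35 with Ctrl shRNA, 10.93 and 9.34 with SHP2 sh1, and 9.72, 9.11 and 9.87 with SHP2 sh2. The SHP2 sh1 arrays fell on either side of the controls, while all 3 SHP2 sh2 arrays were lower, with a gap of 0.36 between the groups. The means were 10.29 ± 0.09 (SD, n = 2), 10.14 ± 1.12 (n = 2) and 9.57 ± 0.40 (n = 3). The limma difference was -0.72 ± 0.48 (SE) for SHP2 sh2, a 1.65-fold lower level, with a 95% interval of -1.86 to 0.42, an unadjusted p of 0.176 and an adjusted p of 0.667. For SHP2 sh1 it was -0.15, with an interval of -1.40 to 1.10 and adjusted p = 0.995. Leaving out both arrays numbered 2, VEGFA stood 0.49 below the controls in SHP2 sh2 and 0.64 above them in the single SHP2 sh1 array left.

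PGF, placental growth factor, a ligand of the receptor FLT1, had the narrowest spread within SHP2 sh2 of the VEGF family ligands. Its log2 values were 8.16 and 8.25 with Ctrl shRNA, 8.65 and 7.87 with SHP2 sh1, and 7.73, 7.76 and 7.56 with SHP2 sh2. All 3 SHP2 sh2 arrays lay below every other array, 0.40 under the lower control, whereas the SHP2 sh1 arrays again took both sides. Group means were 8.20 ± 0.07 (SD, n = 2), 8.26 ± 0.55 (n = 2) and 7.68 ± 0.10 (n = 3). SHP2 sh2 differed from Ctrl shRNA by -0.52 ± 0.26 (SE), 1.43-fold, with a 95% interval of -1.15 to 0.11, an unadjusted p of 0.0923 and an adjusted p of 0.667 in limma. Between the hairpins the difference was -0.58, interval -1.21 to 0.05, with adjusted p = 1.00. The SHP2 sh2 value did not rest on the array that stood apart: without it, arrays 1 and 3 averaged 0.56 below the controls. The window of PGF printed above is that with 2 ETS core matches. Of all windows, 65.1% held the core at 1 or more places, and the share with 2 was not counted. A link between such matches and the level of PGF was not tested.

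VEGFB, another ligand of FLT1 with a limited part in vessel growth, went the other way. It read 8.70 and 9.06 with Ctrl shRNA, 8.83 and 9.49 with SHP2 sh1, and 9.08, 9.73 and 9.16 with SHP2 sh2. All 3 SHP2 sh2 arrays lay above both controls, but the nearest pair was 0.0159 apart, and SHP2 sh1 overlapped the controls. The limma difference was 0.28, interval -0.53 to 1.08, for SHP2 sh1 and 0.44 ± 0.31 (SE), interval -0.30 to 1.18, for SHP2 sh2, with adjusted p of 0.995 and 0.667. The highest values were those of the 2 arrays numbered 2, and without them the SHP2 sh2 difference was 0.24 and that of SHP2 sh1 -0.05.

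VEGFC, the ligand that drives lymphatic vessel growth, read 10.06 and 10.00 with Ctrl shRNA, 10.30 and 8.82 with SHP2 sh1, and 9.72, 8.36 and 10.13 with SHP2 sh2. The controls were 0.06 apart, while a single low array in each SHP2 group, the number 2, lay 1.48 and 1.57 below the rest of its group. Both groups overlapped the controls. Differences were -0.47 for SHP2 sh1, interval -2.09 to 1.15, and -0.63 for SHP2 sh2, interval -2.11 to 0.85, with adjusted p of 0.995 and 0.667 in limma. Without the arrays numbered 2 they were 0.27 and -0.11.

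Of the 10 members, 2 lay lower in all 3 SHP2 sh2 arrays than in both controls, VEGFA and PGF, where 16.1% of all genes did. VEGFB alone lay higher in all 3, where 24.2% of all genes did. For SHP2 sh1, 0 members lay lower in both arrays than in the controls and 0 higher, where the shares of all genes were 12.3% and 12.8%. Over all 5 SHP2 arrays, 0 members lay below both controls and 0 above, against 7.17% and 8.13% of all genes. Among the brightest 25% of genes in the controls, which held VEGFA, VEGFB and PGF, 34.9% lay lower in all 3 SHP2 sh2 arrays and 4.3% higher.

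**Figure D1:**
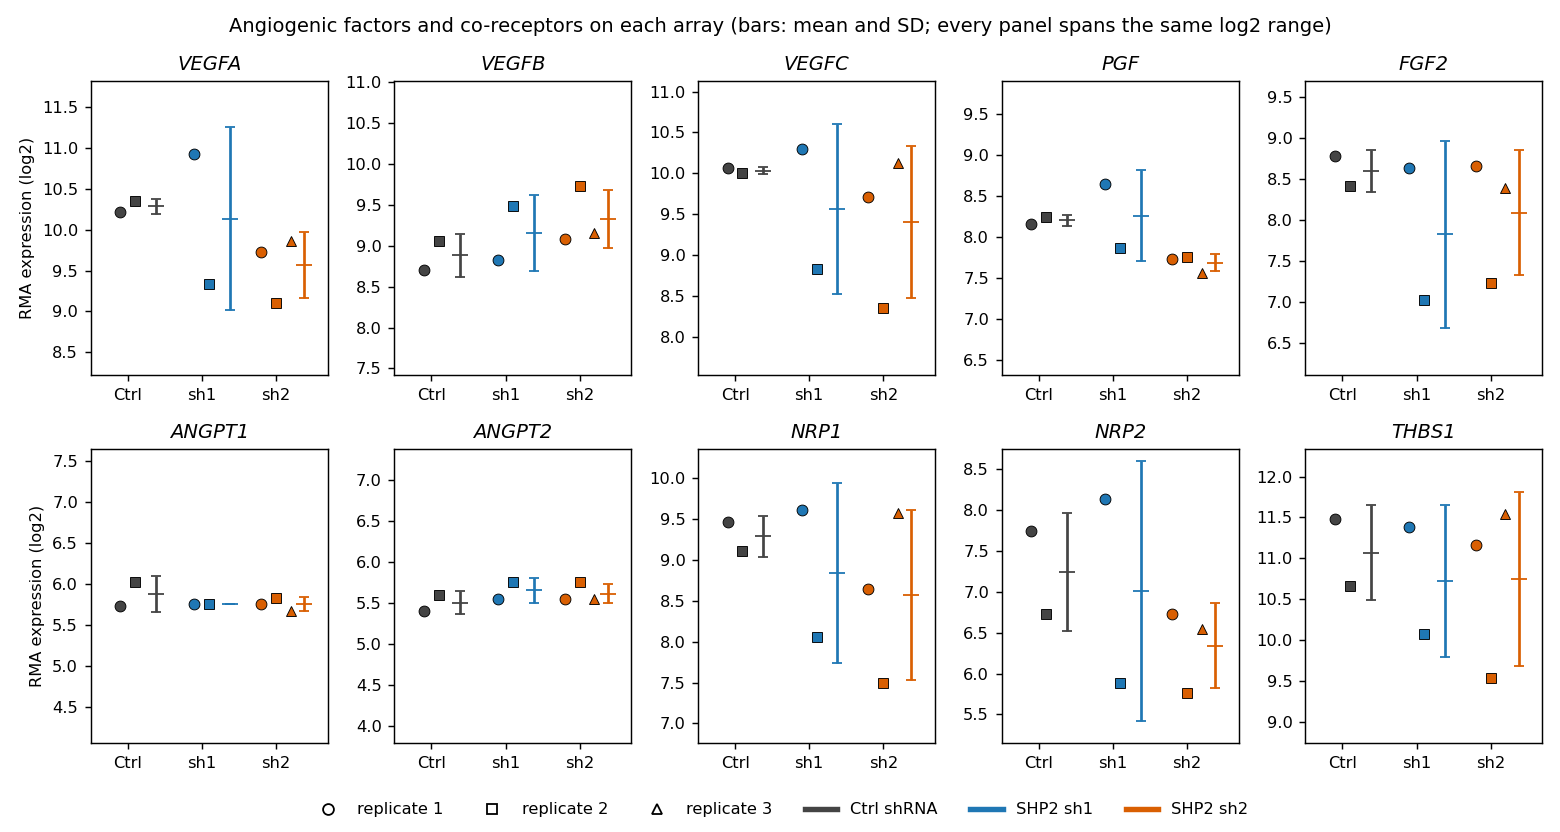
Log2 RMA value (y axis, equal span in every panel) of each of the 10 genes on the 7 arrays, by group; points are arrays, horizontal bars the group mean and vertical bars the SD, and the marker shape gives the replicate number, squares being number 2. All 3 SHP2 sh2 arrays lie below both controls for VEGFA and PGF, by at least 0.36 and 0.40, and ANGPT1 and ANGPT2 hardly spread, with ranges of 0.36 and 0.35.

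FGF2, a heparin-binding growth factor for endothelial and many other cells, read 8.78 and 8.42 with Ctrl shRNA, 8.63 and 7.02 with SHP2 sh1, and 8.66, 7.23 and 8.38 with SHP2 sh2. The 3 SHP2 arrays not numbered 2 stayed within 0.21 of the control mean, and the low values were those of the arrays numbered 2. The differences of -0.77 for SHP2 sh1 (interval -2.31 to 0.77) and -0.51 for SHP2 sh2 (interval -1.91 to 0.90) did not pass in limma, with adjusted p of 0.995 and 0.672. Without those arrays they were 0.04 and -0.08.

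ANGPT1, which stabilises vessels through TEK, read 5.73 and 6.03 with Ctrl shRNA, 5.76 and 5.76 with SHP2 sh1, and 5.76, 5.83 and 5.67 with SHP2 sh2. ANGPT2, which in many settings opposes it at the same receptor, read 5.41 and 5.60, then 5.55 and 5.76, then 5.55, 5.76 and 5.55. Both were among the dimmer genes, ANGPT2 in the dimmest 25% by control mean and ANGPT1 in the next 25%, and the groups overlapped. Each had the same value on 3 arrays, and 12.7% of all genes had 3 or more equal values. The differences were -0.12 for ANGPT1 in either hairpin, with intervals of -0.61 to 0.37 and -0.57 to 0.32, and 0.15 and 0.11 for ANGPT2.

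The co-receptors varied with the array. NRP1, which binds VEGFA and SEMA3A, read 9.47 and 9.11 with Ctrl shRNA, 9.61 and 8.06 with SHP2 sh1, and 8.64, 7.50 and 9.57 with SHP2 sh2. The highest value of each SHP2 group was above both controls and the others below them. Differences were -0.45 for SHP2 sh1, interval -2.23 to 1.32, and -0.72 for SHP2 sh2, interval -2.34 to 0.91, with adjusted p of 0.995 and 0.667. Without the arrays numbered 2 they were 0.33 and -0.18.

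NRP2, the co-receptor that binds VEGFC and SEMA3F, was read by 2 probes. The probe of larger interquartile range read 7.75 and 6.73 with Ctrl shRNA, 8.14 and 5.89 with SHP2 sh1, and 6.73, 5.76 and 6.54 with SHP2 sh2. Its controls were 1.02 apart and its SHP2 sh1 arrays 2.25 apart, the widest gap of any member. The other probe read 7.85 and 7.39, then 7.93 and 6.91, then 7.61, 6.64 and 7.31. The probes ordered the arrays alike at both ends, highest on the SHP2 sh1 array 1 and lowest on the SHP2 sh2 array 2, with the latter probe moving less. On the former probe the SHP2 sh2 difference was -0.90, interval -2.55 to 0.76, with adjusted p = 0.667 in limma. It was -0.43 on the other probe, -0.39 without the Ctrl shRNA array 1 and -1.41 without the Ctrl shRNA array 2. On the former probe the SHP2 sh1 difference was -0.23, interval -2.04 to 1.58. Without the arrays numbered 2 the differences were -0.60 for SHP2 sh2 and 0.90 for SHP2 sh1.

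THBS1, thrombospondin 1, an inhibitor of angiogenesis that acts in part through the receptors CD36 and CD47, read 11.48 and 10.66 with Ctrl shRNA, 11.38 and 10.07 with SHP2 sh1, and 11.17, 9.53 and 11.54 with SHP2 sh2. The controls were 0.82 apart, and the SHP2 arrays other than those numbered 2 lay within or just above their range. Differences of -0.35 for SHP2 sh1 (interval -2.13 to 1.44) and -0.32 for SHP2 sh2 (interval -1.95 to 1.31) did not pass, with adjusted p of 0.995 and 0.782. Without the arrays numbered 2 they turned to 0.31 and 0.28.

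**Figure D2:**
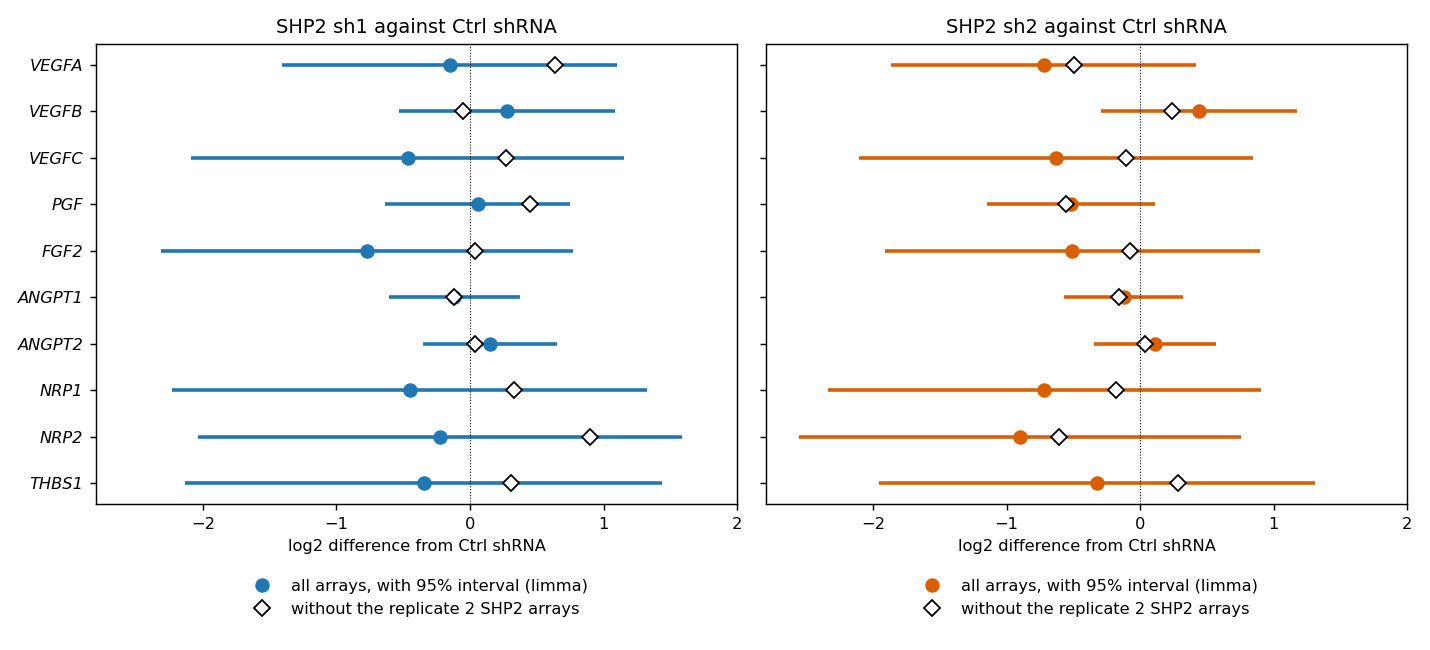
Log2 difference from Ctrl shRNA (x axis) of each gene in SHP2 sh1 and in SHP2 sh2; filled points are limma estimates, horizontal lines their 95% intervals, and open diamonds the difference without the SHP2 arrays numbered 2. The intervals of all 10 genes include 0 in both hairpins, the closest being PGF in SHP2 sh2, from -1.15 to 0.11.

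Across the group, the median difference of the 10 members was -0.19 for SHP2 sh1, where the median of all genes was 0.04, with 7 of 10 members below 0 against 43.5% of all genes. For SHP2 sh2 it was -0.51 against 0.09, with 8 members below 0 against 42.8%. For the mean of both it was -0.39 against 0.08, and between the hairpins -0.10 against 0.03. The hairpins were compared with the same 2 controls, so these medians are not independent of each other. Most members are bright, and 7 of 10 were in the brightest 25% of genes in the controls, all but ANGPT1, ANGPT2 and NRP2. The median of those genes was -0.61 on the SHP2 sh1 array 2 and -1.01 on the SHP2 sh2 array 2, where the median over all genes was 0.10 and 0.18. Members had medians of -0.97 and -1.27 on these arrays, with 8 of 10 below the control mean on each.

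On the other SHP2 arrays the members did not lean the same way. Their median was 0.29 on the SHP2 sh1 array 1, with 8 of 10 above the control mean, -0.22 on the SHP2 sh2 array 1, with 6 below, and -0.08 on the SHP2 sh2 array 3, with 5 below. The brightest 25% of genes had medians of 0.00, -0.18 and -0.04 there. VEGFA, VEGFC, PGF, NRP1 and NRP2 each read above both controls on the SHP2 sh1 array 1.

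VEGFA, VEGFC, FGF2, NRP1, NRP2 and THBS1, 6 of 10 members, read lower on both arrays numbered 2 than on the other 3 SHP2 arrays, where 29.3% of all genes and 67.8% of the brightest 25% did. NRP2 is in the 25% next below the brightest, where 35.6% did. VEGFB and ANGPT2, 2 of 10, read higher on both, where 41% of all genes and 7.2% of the brightest 25% did. VEGFB is in the brightest 25%, and ANGPT2 in the dimmest 25%, where 61.7% of genes read higher on both. PGF and ANGPT1 did neither. PGF was 0.78 lower on the number 2 array in SHP2 sh1 and 0.11 higher than the mean of the others in SHP2 sh2. How far the differences of these genes belong to the hairpins or to the arrays that stood apart was not tested. Each array reads the RNA of a whole culture, so fewer cells making a transcript and less of it per cell cannot be told apart.

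**Figure D3:**
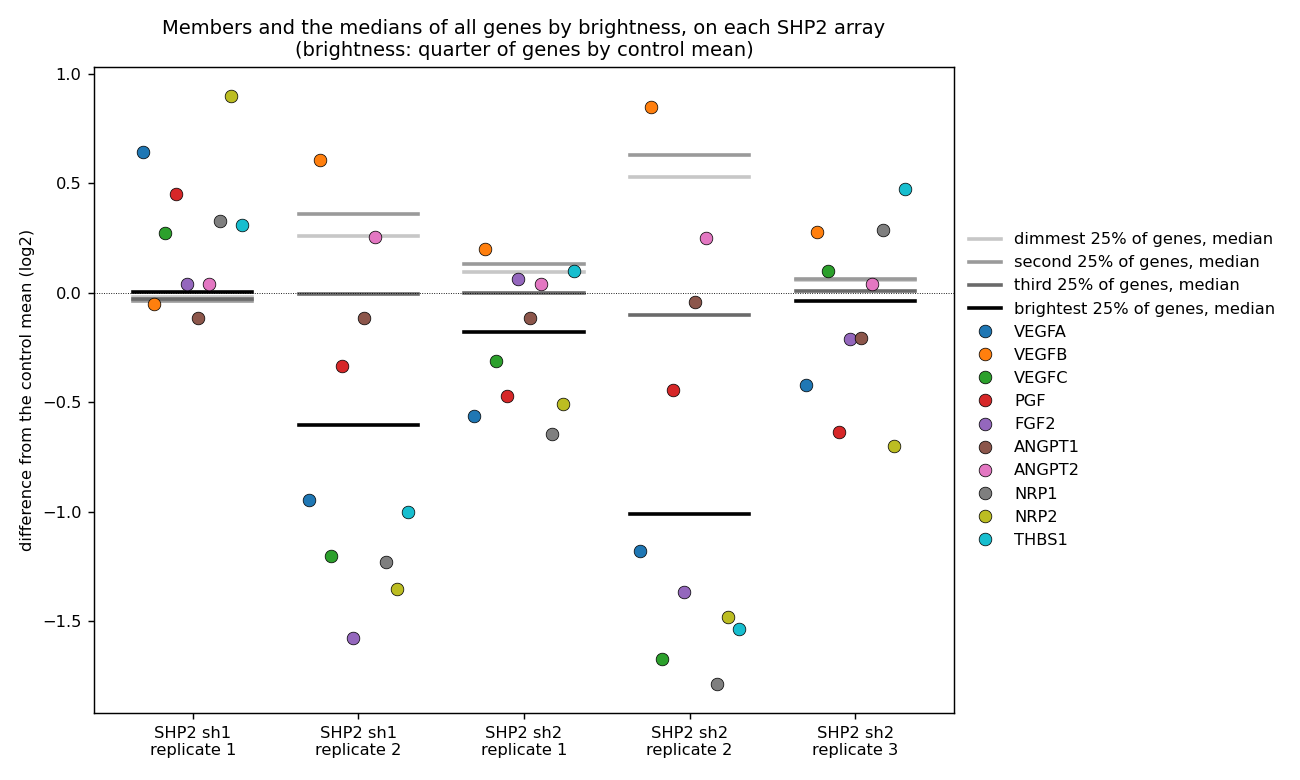
Difference from the control mean (y axis, log2) of the 10 genes on each SHP2 array (x axis), with horizontal lines at the medians of 4 equal classes of genes ranked by control mean, as the legend gives. On the arrays numbered 2 the members' median is -0.97 and -1.27 and that of the brightest 25% of genes -0.61 and -1.01, while on the other 3 arrays the members' median lies between -0.22 and 0.29.

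The genes whose 7-array profile was nearest to each member, by the root mean square difference of profiles centred on their own mean, were found for the 8 members with a range of at least 1. No member was among the 2 nearest genes of another. VEGFA was nearest to RLF and USP18, at 0.0799 and 0.0806 log2 units. VEGFB was nearest to CLPS and TSHR (0.0259 and 0.0552), and PGF to FMO4 and MID1IP1 (0.115 and 0.118). VEGFC was nearest to ANXA7 and UBR1 (0.0534 and 0.0559), and the member most like it was NRP1 at 0.169. FGF2 was nearest to PALS2 and RPL10 (0.0927 and 0.108), NRP1 to ACTR10 and FASTKD2 (0.0907 and 0.0936), NRP2 to ARG2 and IFIT3 (0.242 and 0.256), and THBS1 to MRPL9 and LMLN (0.0727 and 0.140). These are descriptions over 7 arrays, 2 of which stood apart.

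Receptors, partners and regulators of the members were taken from a list of 57 genes, of which 54 were measured. No gene of the list passed in either hairpin. Without adjustment 5 were under 0.05 in SHP2 sh1 and 7 in SHP2 sh2, out of 54, where 1.09% and 2.35% of all genes were. The list was chosen with earlier results of these data known, and both counts rest on the same controls. Neither count is therefore independent evidence of a change. The median difference of the list was 0.12 for SHP2 sh1 and 0.06 for SHP2 sh2. In the counts by list that follow, 58% of all genes lay above 0 for the mean of both hairpins and 42% below, or 50.5% and 49.3% without the arrays numbered 2. On all 5 SHP2 arrays 8.13% of all genes lay above both controls and 7.17% below. Most genes named from the lists were picked by smallest p, a choice that favours such separation. FLT1, the receptor that binds VEGFA, VEGFB and PGF, read 4.50 to 4.96 over the 7 arrays, and KDR, the main receptor of VEGFA, 5.09 to 5.97. The mean of both hairpins differed from Ctrl shRNA by 0.15 ± 0.20 (SE) for FLT1 and 0.24 ± 0.26 for KDR. TEK, the angiopoietin receptor, read 5.77 and 5.46 with Ctrl shRNA and 5.88 to 6.74 on the SHP2 arrays, all higher. Its difference was 0.49 ± 0.25, or 0.36 without the arrays numbered 2. TEK and KDR are also among the endothelial markers whose summed level was given above. ANGPTL4, a secreted lipase inhibitor, differed by -0.29 ± 0.24.

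FGFR1, a receptor of FGF2, read 6.45 and 6.23 with Ctrl shRNA, 6.92 and 7.27 with SHP2 sh1, and 7.09, 7.54 and 7.92 with SHP2 sh2. All 5 SHP2 arrays were above both controls, as for 8.13% of all genes. The mean of both hairpins differed by 0.97 ± 0.26 (SE), with adjusted p = 0.758 in limma. Of 8 genes of the FGF list, 7 were above 0 for the mean of both hairpins, and 5 without the arrays numbered 2. FGF1, a further ligand of these receptors, differed by 0.68 ± 0.30. FGF2 itself differed by -0.64 in the same comparison. Without the arrays numbered 2, FGF2 differed by 0.04 in SHP2 sh1 and -0.08 in SHP2 sh2. The mean differences of FGFR1 and FGF1 were then 0.87 and 0.41.

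Class 3 semaphorins compete with VEGF ligands for the neuropilins, and plexins are their signalling receptors. SEMA3A read 10.29 and 9.53 with Ctrl shRNA, 9.76 and 7.05 with SHP2 sh1, and 8.64, 6.12 and 8.34 with SHP2 sh2. All SHP2 sh2 arrays lay below both controls, as did those of 16.1% of all genes and 34.9% of the brightest 25%. SHP2 sh1 overlapped the controls, and the mean difference of SEMA3A was -1.85 ± 0.92 (SE), with adjusted p = 0.758 in limma. SEMA3F differed by 0.44 ± 0.23, higher on all 5 SHP2 arrays, as were 8.13% of all genes. PLXND1 read 7.86 and 7.62 with Ctrl shRNA, 8.55 and 9.01 with SHP2 sh1, and 8.45, 8.29 and 9.04 with SHP2 sh2. It was higher on all 5 SHP2 arrays, by 0.95 ± 0.27, with adjusted p = 0.758. PLXNA3 differed by 0.79 ± 0.31, also higher on all 5.

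Of 6 other thrombospondins and receptors, 5 were above 0 for the mean of both hairpins, and 4 without the arrays numbered 2. THBS3 differed by 0.42 ± 0.19 (SE) and CD47, a receptor of THBS1, by -0.95 ± 0.62, its lowest values lying on the arrays numbered 2. All 3 SHP2 sh2 arrays of CD47 lay below both controls, as did those of 16.1% of all genes and 34.9% of the brightest 25%. Without the arrays numbered 2 the CD47 difference was -0.24. CD36, the other THBS1 receptor named above, differed by 1.35 ± 1.11, or 2.51 without the arrays numbered 2. Its controls alone read 6.82 and 8.63. Of 6 other inhibitors of angiogenesis, 3 were above 0 and 3 below, with a median of 0.01. VASH1 differed by 0.46 ± 0.24 and COL18A1, the source of endostatin, by 0.47 ± 0.36. COL18A1 read highest on the arrays numbered 2, and without them its difference was 0.08. Of 6 platelet-derived growth factors and receptors, 2 were above 0 and 4 below (median -0.20), and without the arrays numbered 2 the list was split 3 and 3. PDGFRB differed by 0.73 ± 0.24 and PDGFB by 0.44 ± 0.18, the latter higher on all 5 SHP2 arrays, as were 8.13% of all genes. The ligand PDGFC differed by -0.63 ± 0.30, lower on all 5, as were 7.17% of all genes. The receptor PDGFRA differed by -1.19 ± 0.87, or -0.24 without the arrays numbered 2. CD36, PDGFC and PDGFRA are given after their values were seen, and no gene of these lists passed the test.

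The oxygen-sensing list, which includes regulators of VEGFA, had 7 of 9 genes below 0 for the mean of both hairpins, and 3 of 9 without the arrays numbered 2. NDRG1, a gene induced by low oxygen, read 10.16 and 10.72 with Ctrl shRNA, 11.24 and 9.84 with SHP2 sh1, and 9.46, 9.28 and 9.37 with SHP2 sh2. Like VEGFA, it was lower in all 3 SHP2 sh2 arrays than in both controls and highest on the SHP2 sh1 array 1. Of all genes, 16.1% lay lower in all 3 SHP2 sh2 arrays, and of the brightest 25%, 34.9% did. In the same list VHL, EGLN1 and EGLN3 did so too, while HIF1A, EPAS1, ARNT, ADM and ANKRD37 overlapped the controls. The mean difference of NDRG1 was -0.49 ± 0.38 (SE), and ARNT, the partner of HIF1A, differed by -0.37 ± 0.36, both with adjusted p = 0.758 in limma. ARNT stood at -0.71 and -1.08 from the control mean on the arrays numbered 2, and at 0.15, -0.15 and -0.15 on the other SHP2 arrays. Without the arrays numbered 2 the mean difference was -0.11 for NDRG1 and -0.0004 for ARNT.

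**Figure D4:**
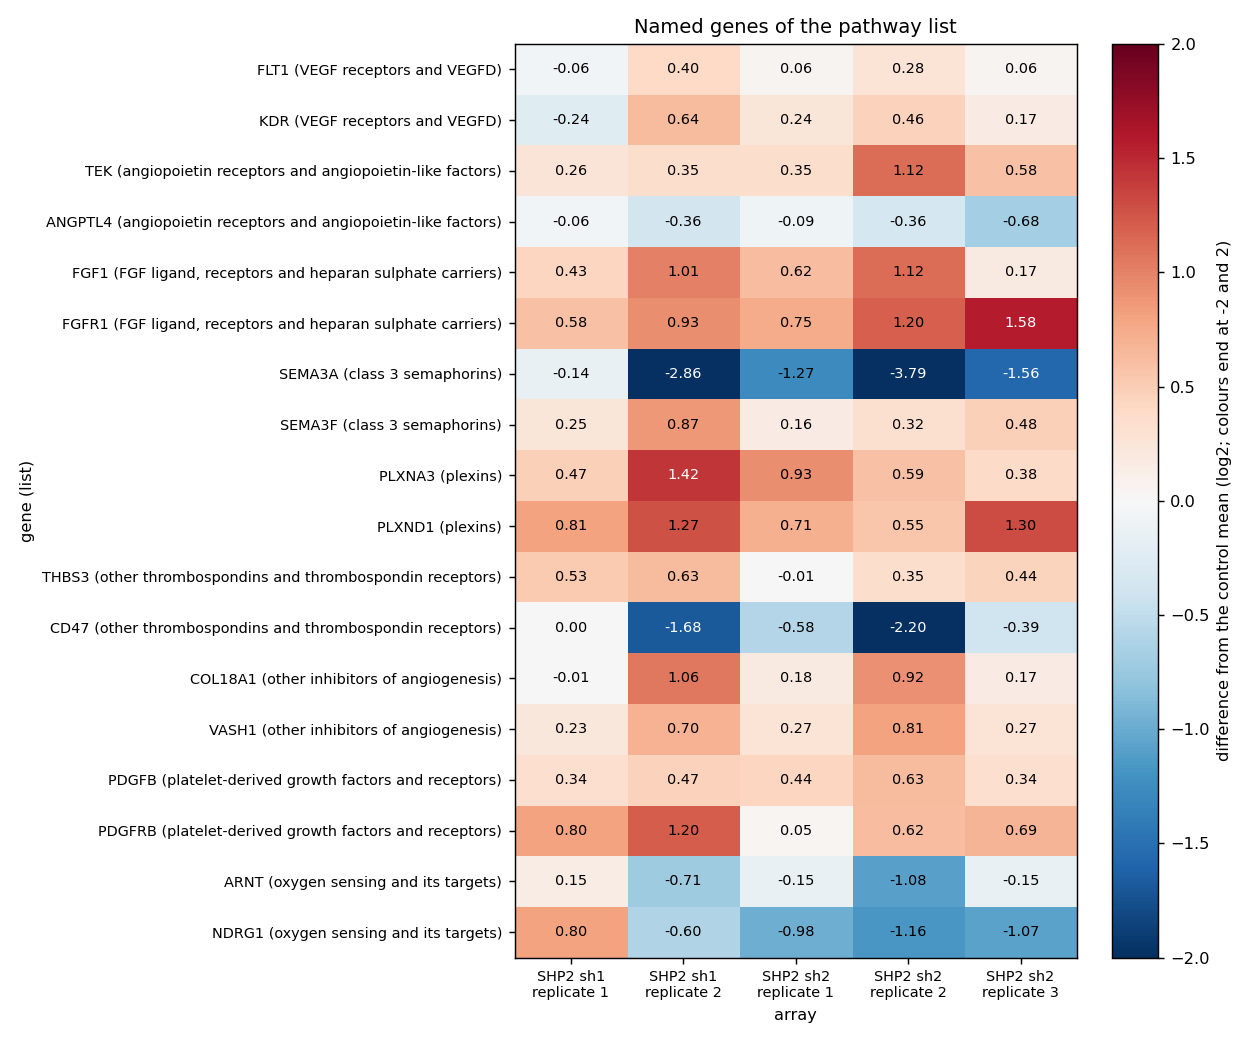
Heat map of the named receptors, partners and regulators (y axis, with the list each belongs to) on the 5 SHP2 arrays (x axis); colour gives the log2 difference from the control mean and ends at -2 and 2. FGFR1 and PLXND1 lie above the control mean on all 5 arrays, and SEMA3A lies below it on all 5 with its lowest values on the arrays numbered 2.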

How the data were processed

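RNA of SUM159 cells was hybridised to 7 Human Gene 1.0 ST arrays. The authors applied robust multi-array averaging in oligo, whose version is not given in the sources used here; it corrects background, gives all arrays the same distribution of probe signals and combines the probes of each transcript. The deposited log2 values were used as given; precision is limited by the 2 or 3 arrays of a group. Of 33297 probes, 19460 were annotated to 1 gene symbol, 1754 to several and 12083 to none here. Symbols were updated by gene ID through RefSeq (GRCh38.p14), where 19429 were found. The probe of largest interquartile range stood for each of 18417 genes, a choice that concerned 769 of them, NRP2 among the members.

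limma (3.58.1, R 4.3.3) fitted 3 group means over all 7 arrays with eBayes, two-sided, with p-values adjusted by Benjamini-Hochberg over 18417 genes and called at 0.05. The procedure was tested on simulated data with independent noise on each array. That simulation held no arrays that stood apart, so it does not speak to this feature of the data. Named were the members, PTPN11, the 2 genes of smallest unadjusted p for the mean of both hairpins in each of 9 pathway lists, and the 2 genes of nearest profile to each member with a range of at least 1. The members and lists were chosen with earlier results of these data known. Alternatives changed the probe (highest mean, or probes averaged), removed the dimmest 25% of genes, changed the normalization (cyclic loess, centring on medians), changed the fit (trend in eBayes, array weights, compared arrays only, replicate block) or left out each array; leaving out both arrays numbered 2 was chosen after seeing the data.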

Additional observations from a re-analysis of the deposited data

How the results depend on the processing

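No member passed the threshold under any alternative run, and 0 genes did in any comparison except SHP2 sh2 against Ctrl shRNA with array weights, where 30 genes passed, no member among them; the cause was not tested. The SHP2 sh2 differences of VEGFA, PGF, FGF2, VEGFC and NRP2 stayed below 0 and that of VEGFB above 0 under every alternative. Directions that turned are grouped by comparison, on the log2 scale. For SHP2 sh1 against Ctrl shRNA, VEGFA was 0.12 with cyclic loess. Leaving out both arrays numbered 2 gave 0.64 for VEGFA, -0.051 for VEGFB, 0.27 for VEGFC, 0.037 for FGF2, 0.33 for NRP1, 0.90 for NRP2 and 0.31 for THBS1. With each array left out in turn, values ran from -0.95 to 0.64 for VEGFA, -0.051 to 0.60 for VEGFB, -1.21 to 0.27 for VEGFC, -0.33 to 0.45 for PGF, -1.58 to 0.037 for FGF2, -0.27 to 0.034 for ANGPT1, -1.23 to 0.33 for NRP1, -1.35 to 0.90 for NRP2 and -1.001 to 0.31 for THBS1. For SHP2 sh2, ANGPT2 was -0.12 with cyclic loess, NRP1 0.080 with array weights, and THBS1 0.10 with cyclic loess, 0.27 with array weights and 0.28 without both arrays numbered 2; single arrays left out gave -0.27 to 0.029 for ANGPT1 and -0.73 to 0.28 for THBS1. For SHP2 sh2 against SHP2 sh1, array weights gave 0.39 for VEGFC and 0.53 for NRP1, median centring gave -0.0018 for THBS1, and leaving out both arrays numbered 2 gave -0.11 for FGF2 and -0.024 for THBS1. Single arrays left out there gave -1.36 to 0.22 for VEGFA, -0.16 to 0.49 for VEGFB, -0.90 to 0.58 for VEGFC, -0.54 to 1.07 for FGF2, -0.043 to 0.037 for ANGPT1, -0.15 to 0.070 for ANGPT2, -1.04 to 0.51 for NRP1, -1.79 to 0.46 for NRP2 and -0.63 to 0.68 for THBS1. For the mean of both hairpins, KDR was -0.018 and FLT1 -0.0003 without both arrays numbered 2, and FLT1 was -0.0004 with cyclic loess.

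The replicate numbers do not pair the arrays by the labels. Deviations of same-numbered arrays correlated at -0.060 between Ctrl shRNA and SHP2 sh1, 0.023 and -0.027 between Ctrl shRNA and SHP2 sh2, and 0.615 and 0.846 between the hairpins. Differently numbered arrays of the hairpins correlated at -0.846 to 0.808, the highest being the SHP2 sh1 array 1 with the SHP2 sh2 array 3. In a group of 2 arrays the deviations are equal and opposite, so these values do not show that the numbers pair the arrays. With the replicate block, 0 genes passed in each comparison, and between the hairpins ANGPT1 was 0.037 and THBS1 -0.37. Arrays limit the precision through their number, and dim probes such as ANGPT1 and ANGPT2 may lie too near background to show a change.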
